A study of Mus musculus with 4 samples.

Results

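Lysyl oxidases and collagen hydroxylases are the enzymes that prepare collagen for cross-linking and then cross-link it. The group examined here comprised 10 genes: the lysyl oxidases Lox, Loxl1, Loxl2, Loxl3 and Loxl4, the lysyl hydroxylases Plod1, Plod2 and Plod3, and the collagen prolyl 4-hydroxylase subunits P4ha1 and P4ha2. They were taken by name from the 34844 gene names on the array, which gave 18 of the 55681 probes that are not controls. Of the 10 genes, 6 had at least 2 probes and 4 had 1. Membership goes by gene name alone, whatever the level of the gene, but the members were chosen with earlier results of these data known.

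The cells were mouse primary osteoblasts, which are bone-forming cells taken from the animal and cultured, here in 10% serum. They were treated for 72 h with BMP2 at 200 ng/ml together with LOXL2 at 4 µg/ml, with BMP2 at 200 ng/ml, with LOXL2 at 4 µg/ml, or with neither protein (untreated). BMP2 is a secreted growth factor that drives bone and cartilage formation, and LOXL2 is itself a secreted lysyl oxidase. Each treatment was measured on 1 single-colour Agilent array, so no treatment was replicated. Every fitted effect of a protein rests on 2 arrays with it against 2 arrays without it. The labels call the cells without BMP2 pre-osteoblasts and those with BMP2 osteoblasts, and they do not say whether the 4 cultures were separate preparations.

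Collagen chains are modified in the endoplasmic reticulum before they are secreted. Prolyl 4-hydroxylases modify prolines, which the triple helix needs to hold together at body temperature, and lysyl hydroxylases modify lysines, which sets the kind of cross-link that can form later. Outside the cell, copper-dependent lysyl oxidases oxidise lysines and hydroxylysines to aldehydes, and these react with neighbouring chains to give the covalent cross-links on which the strength of bone collagen depends.

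The arrays were alike in depth. Between 60.4% and 62.2% of spots were well above background on each array, and the 75th percentile of the intensity, which was used to scale the arrays, ran from 710.5 to 742.9. No spot was saturated. All 6 osteoblast markers (Runx2, Sp7, Alpl, Bglap, Ibsp and Spp1) were well above background on all 4 arrays. So were markers of other cell types, such as Col2a1, Tnmd and Dcn, so detection alone does not identify the cell type. In the limma test with Benjamini-Hochberg adjustment, 4060 of 33976 probes (11.9%) passed an adjusted p of 0.05 for BMP2 and 0 passed for LOXL2. At an unadjusted p under 0.05 there were 13260 probes (39.0%) for BMP2 and 1955 for LOXL2. With the trend and robust settings of limma, 71 probes passed for LOXL2, none of them of the members. Since the array reads RNA from a whole culture, fewer cells of a type and less RNA per cell cannot be told apart.

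Cells treated with BMP2 had less RNA of Lox and Loxl1 and more of Plod1, Plod2, P4ha1 and P4ha2, while Loxl2, Loxl3, Loxl4 and Plod3 did not pass the test. Of the 17 member probes that were well above background on at least 2 arrays, 10 were called for BMP2 (58.8%, against 11.9% of all probes). These 10 probes are of 6 genes. Of these 10, 4 fell, and they were the 2 probes of Lox and the 2 of Loxl1, while 6 rose, and they were probes of Plod1, Plod2, P4ha1 and P4ha2. Among all probes, 6.19% fell and 5.76% rose. The 17 member probes were well above background on all 4 arrays. With that filter set for every probe, 12 of the 17 were called, against 6943 of 31504 probes. The members' median absolute change was 0.52 on the log2 scale, against 0.21 over all probes tested. The 10 calls rest on the filter on dim probes: with no such filter 0 of all probes passed, and these 10 had adjusted p from 0.125 to 0.151 in limma with the same changes.

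**Figure D1:**
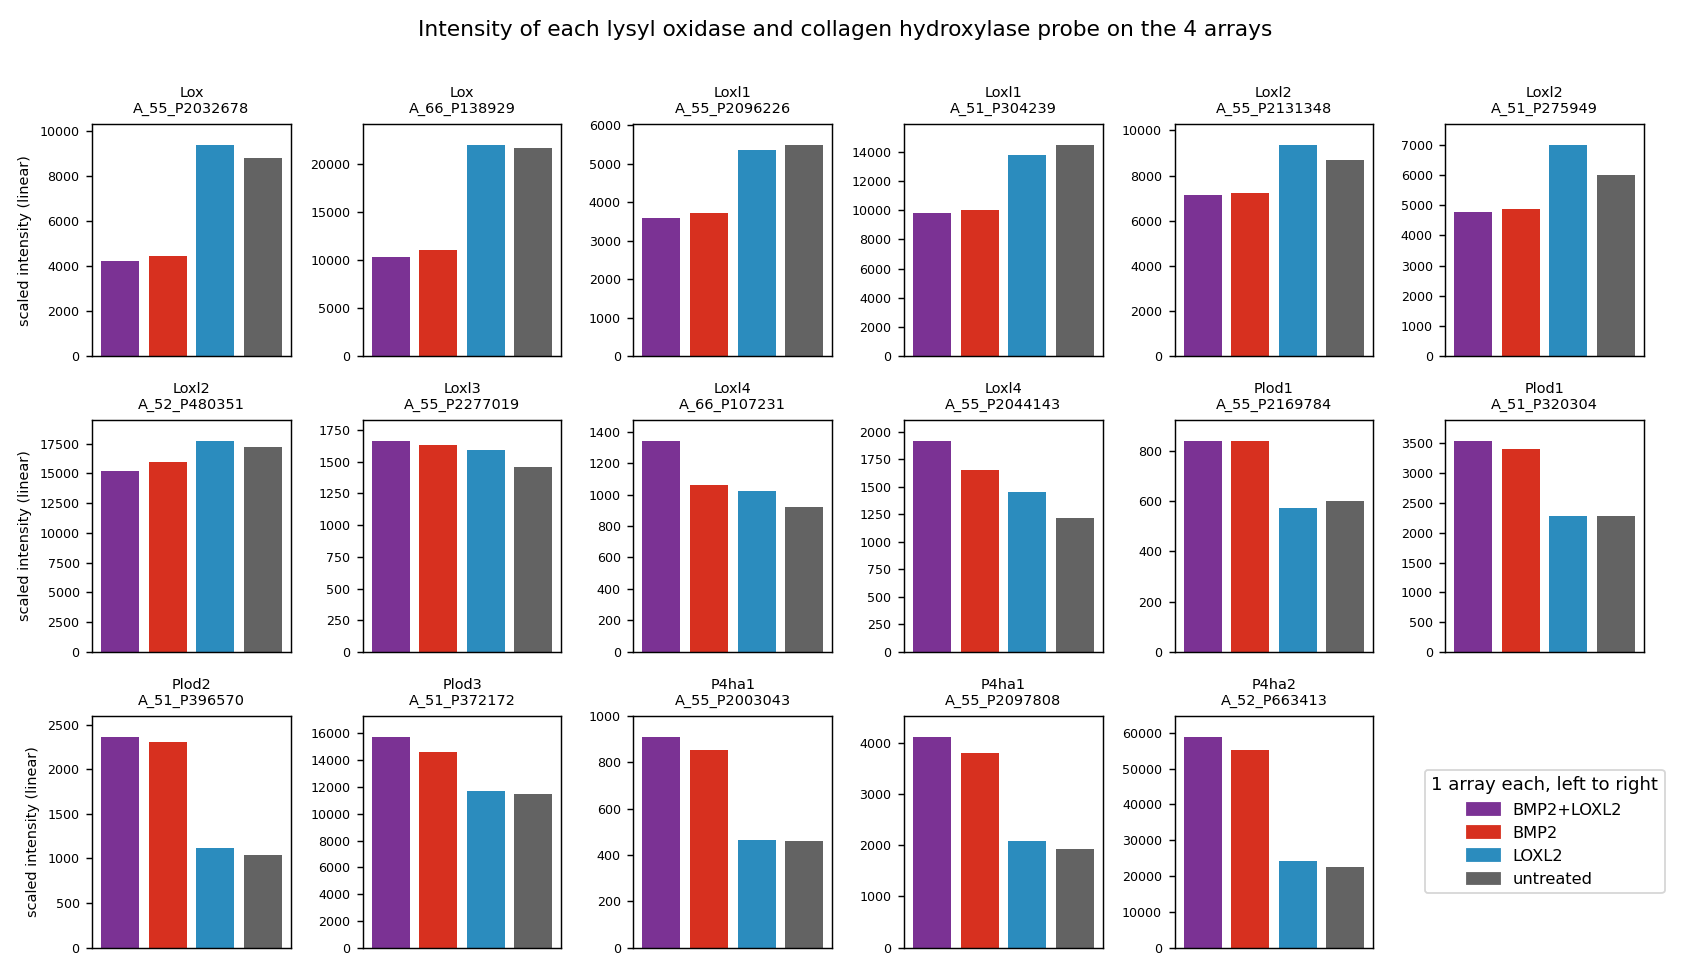
Scaled intensity (linear, vertical axes from 0) of the 17 probes above background, with 1 bar per array in the order BMP2+LOXL2, BMP2, LOXL2 and untreated. The left pair of bars is lower than the right pair for Lox, Loxl1 and Loxl2 and higher for the other 7 genes, whether or not the difference passed the test.

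Lox is the founding lysyl oxidase and acts on fibrillar collagen and elastin. Its brighter probe, A_66_P138929, read 10316 with both proteins and 11048 with BMP2, against 22000 with LOXL2 and 21730 untreated (intensity after scaling to a common 75th percentile). The other probe, A_55_P2032678, read 4219 and 4450 on the arrays with BMP2, against 9385 with LOXL2 and 8824 untreated. The 2 arrays with BMP2 were close to each other on both probes and did not overlap the 2 without it. Of all probes tested, 31.9% were lower with BMP2 without overlap. In the fit Lox fell by 1.03 ± 0.07 (log2 ± SE, limma adjusted p = 0.0333) on the brighter probe, a ratio of 0.488, and by 1.07 ± 0.08 (limma adjusted p = 0.0348) on the other. On mm9 the probes lie on the reverse strand of chromosome 18, from 52676912 to 52676971 and from 52680465 to 52680524.

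Loxl1 is known above all for the upkeep of elastic fibres. Probe A_51_P304239 read 9808 with both proteins and 10029 with BMP2, against 13780 with LOXL2 and 14462 untreated. Probe A_55_P2096226 read 3584 and 3724 with BMP2 present, against 5364 with LOXL2 and 5488 untreated. Loxl1 fell by 0.51 ± 0.06 on the first probe (limma adjusted p = 0.0461) and by 0.57 ± 0.06 on the second (limma adjusted p = 0.042), so the RNA with BMP2 was 0.703 and 0.673 times the level without it. The fall of Loxl1 was smaller than that of Lox, with 95% intervals of -0.71 to -0.31 against -1.26 to -0.81 on the brighter probes. On mm9 the probes lie on chromosome 9, from 58138570 to 58138629 and from 58145451 to 58145510.

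Loxl2 encodes the enzyme that was also added to the medium as protein, and it did not pass the test on any of its 3 probes. The probes read different places of the mRNA, at the file's transcript positions 2212, 2293 and 4792, and the file lists 3, 2 and 1 Ensembl transcripts for them. The sequences of the nearer pair are shown because these probes, although close together on the mRNA, had larger differences than the distant one.
A_55_P2131348: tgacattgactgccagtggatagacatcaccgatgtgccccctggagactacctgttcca
A_51_P275949: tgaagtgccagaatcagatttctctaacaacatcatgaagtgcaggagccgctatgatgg
The 2 sequences lie on the forward strand of chromosome 14 on mm9, from 70090017 to 70090076 and from 70092141 to 70092200. Probe A_55_P2131348 read 7153 with both proteins and 7234 with BMP2, against 9346 with LOXL2 and 8672 untreated. Probe A_51_P275949 read 4769 and 4878 on the arrays with BMP2, against 6981 with LOXL2 and 6010 untreated. Probe A_52_P480351, at chromosome 14 from 70095254 to 70095313, read 15186 and 15956 with BMP2, against 17727 with LOXL2 and 17179 untreated. The arrays with BMP2 were the lower ones on all 3 probes without overlap, which was so for 31.9% of all probes tested. The fitted BMP2 changes were -0.32 ± 0.07, -0.43 ± 0.09 and -0.16 ± 0.07 on the log2 scale, with limma adjusted p = 0.084, 0.0896 and 0.199. The direction was shared by the probes, and its size ran from 0.745 to 0.892 times the level without BMP2. The cause of the spread between probes was not tested.

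Loxl3 and Loxl4 are further members of the family with scavenger receptor domains, like Loxl2. Loxl3 read 1665 with both proteins and 1633 with BMP2, against 1595 with LOXL2 and 1460 untreated, a BMP2 change of 0.11 ± 0.06 (limma adjusted p = 0.309). Probe A_55_P2044143 of Loxl4 read 1918 with both proteins, 1651 with BMP2, 1455 with LOXL2 and 1216 untreated. Probe A_66_P107231 read 1341, 1061, 1021 and 922 in the same order of treatments. Loxl4 was highest with both proteins and lowest untreated on both probes. Its BMP2 changes were 0.42 ± 0.06 (limma adjusted p = 0.0549) and 0.30 ± 0.08 (limma adjusted p = 0.116), neither past the threshold. A separate fit with 1 probe per gene name called 4926 of 23906 probes for BMP2. In that fit the change of 0.42 had a limma adjusted p = 0.041.

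Of the 3 lysyl hydroxylases, Plod1 and Plod2 rose with BMP2 and Plod3 did not pass. Plod2, whose product hydroxylates the telopeptide lysines of collagen and so favours the stable cross-links of bone, read 2365 with both proteins and 2304 with BMP2, against 1114 with LOXL2 and 1033 untreated. The BMP2 arrays were close to each other and above both others, the latter being so for 36.8% of all probes tested. Plod2 rose 2.18-fold (1.12 ± 0.06 on the log2 scale, limma adjusted p = 0.031). Its probe lies on mm9 chromosome 9 from 92502483 to 92502542.

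Plod1, the main hydroxylase of lysines in the helical part of collagen, rose by less. Its brighter probe is shown because its genomic span on mm9, chromosome 4 from 147290037 to 147291457 on the reverse strand, is longer than its 60 bases, so that it reads spliced mRNA.
A_51_P320304: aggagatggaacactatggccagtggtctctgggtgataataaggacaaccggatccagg
This probe read 3543 with both proteins and 3406 with BMP2, against 2275 with LOXL2 and 2278 untreated. The other measured probe, A_55_P2169784, read 836 and 839 with BMP2, against 573 with LOXL2 and 599 untreated. Plod1 rose by 0.61 ± 0.06 (limma adjusted p = 0.0413) on the brighter probe and by 0.52 ± 0.06 (limma adjusted p = 0.047) on the other, which is 1.53-fold and 1.43-fold. Another probe named Plod1, A_55_P2169779, was not well above background on any array and was not tested. The file ties it to 1 Ensembl transcript that neither of the other probes lists.

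Plod3, which adds sugars to hydroxylysine as well as hydroxylating lysine, read 15753 with both proteins and 14616 with BMP2, against 11721 with LOXL2 and 11500 untreated. The arrays with BMP2 were higher without overlap, which was so for 36.8% of all probes tested. The change of 0.39 ± 0.06 did not pass (limma adjusted p = 0.0628). With 1 probe per gene name, the limma adjusted p of Plod3 was 0.0476, in a fit that called 4926 of 23906 probes. Among the 3 lysyl hydroxylases, the order of the fitted BMP2 changes was Plod2, Plod1 and Plod3, and only the interval of Plod2 (0.91 to 1.33 at 95%) lay clear of those of Plod1 (0.41 to 0.81 on the brighter probe) and Plod3 (0.18 to 0.60).

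P4ha1 and P4ha2 encode the catalytic subunits of collagen prolyl 4-hydroxylase, and P4ha2 is the form typical of cartilage and bone cells. P4ha2 had the largest change of the 10 genes. It read 58894 with both proteins and 55278 with BMP2, against 24274 with LOXL2 and 22387 untreated. P4ha2 rose 2.45-fold (1.29 ± 0.06 on the log2 scale, limma adjusted p = 0.0298, the smallest adjusted p in the table, which other probes share). P4ha1 read 4116 with both proteins and 3803 with BMP2, against 2077 with LOXL2 and 1918 untreated on probe A_55_P2097808. Probe A_55_P2003043 read 910 and 852 with BMP2, against 464 with LOXL2 and 461 untreated. P4ha1 rose 1.98-fold and 1.91-fold on these probes (0.99 ± 0.06 and 0.93 ± 0.06 on the log2 scale, limma adjusted p = 0.0315 and 0.0341). Intensities of different probes are not comparable, so the order of the subunits by amount is not known.

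The promoters of both prolyl hydroxylase genes are shown because both genes rose and both are known targets of hypoxia-inducible factors, whose binding core is ACGTG. RefSeq sequence of GRCm38.p6 was at hand for 5 of the 10 genes (Loxl4, Plod1, Plod3, P4ha1 and P4ha2). The 250 bases before the start are given 5′ to 3′ on the gene's strand, and capitals mark ACGTG or its reverse complement CACGT.
P4ha2, forward strand, chr11:54100674-54100923: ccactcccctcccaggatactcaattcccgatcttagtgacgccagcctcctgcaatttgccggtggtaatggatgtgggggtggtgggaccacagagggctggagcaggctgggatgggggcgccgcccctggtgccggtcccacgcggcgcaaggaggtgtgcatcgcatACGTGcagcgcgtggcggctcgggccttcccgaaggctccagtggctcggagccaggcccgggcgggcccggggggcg
P4ha1, forward strand, chr10:59323046-59323295: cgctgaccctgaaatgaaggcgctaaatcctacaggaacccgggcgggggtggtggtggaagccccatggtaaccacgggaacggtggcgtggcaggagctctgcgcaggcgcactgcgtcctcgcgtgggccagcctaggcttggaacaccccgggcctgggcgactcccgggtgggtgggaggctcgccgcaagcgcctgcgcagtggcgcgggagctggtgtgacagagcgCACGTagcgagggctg
The motif was searched on both strands. It begins 78 bases before the start of P4ha2 on the gene's strand and 16 bases before the start of P4ha1 on the other strand. Plod3 also holds 1 match, at 54 bases, and the windows of Loxl4 and Plod1 hold none. Among 32851 promoter windows of the same length, 16.6% hold at least 1 match. A match is a description of the letters and not a binding site shown here.

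**Figure D2:**
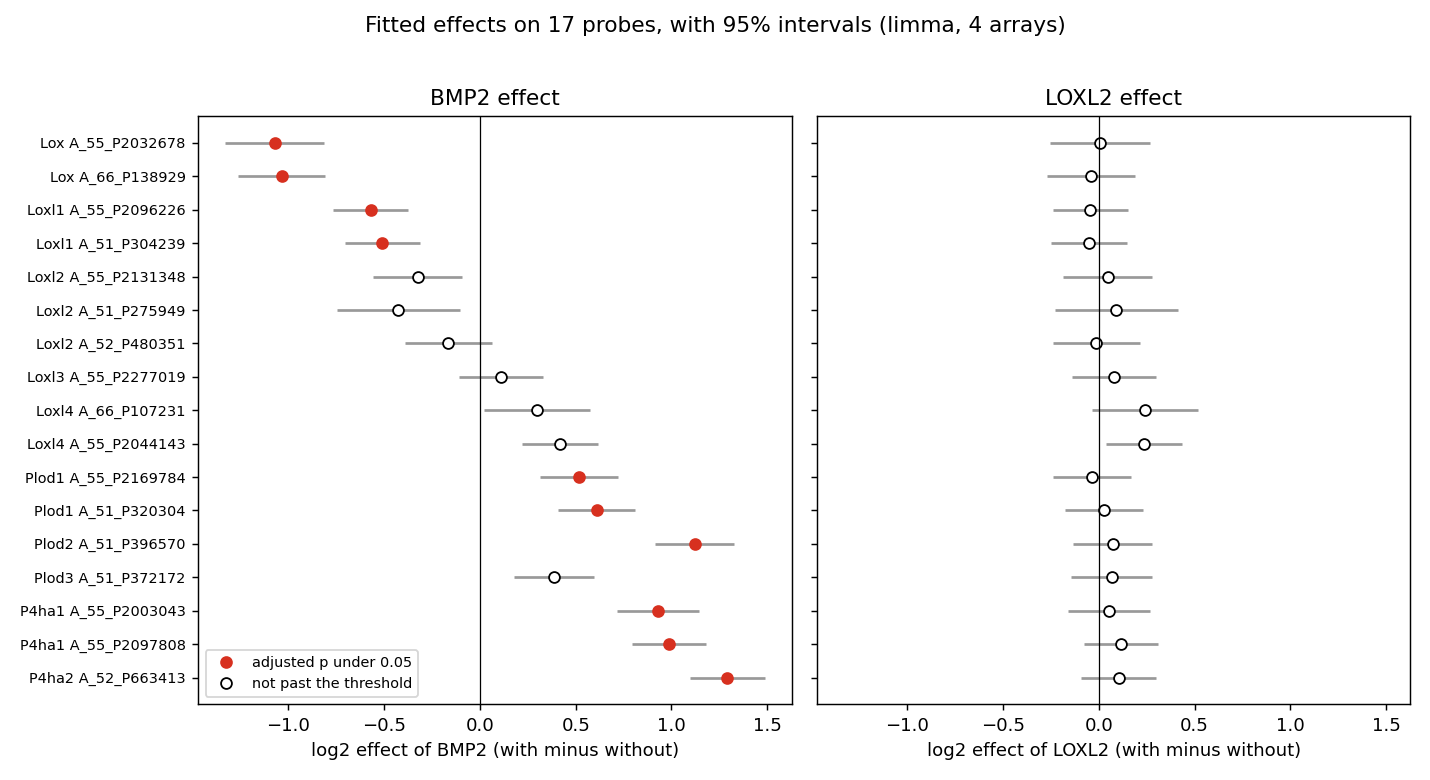
Fitted log2 effects of BMP2 (left panel) and of LOXL2 (right panel) on the 17 probes, on the same horizontal scale, with 95% intervals from limma. Filled points passed an adjusted p of 0.05. In the left panel the 4 probes of Lox and Loxl1 are filled below 0 and 6 hydroxylase probes are filled above 0, and in the right panel no point is filled.

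Added LOXL2 went with no called change in any of these enzymes. Over the 17 probes the fitted LOXL2 effects ran from -0.05 to 0.24 on the log2 scale, with a median of 0.05 (-0.0017 over all probes tested). In limma 0 of the 17 passed, with adjusted p from 0.825 to 0.992, as did 0% of all probes. At an unadjusted p under 0.05 there was 1 member probe, of Loxl4, against 5.75% of all probes. The 95% intervals of the 17 effects lay between -0.27 and 0.52, so changes within these bounds are not excluded.

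The largest LOXL2 effects of the group were those of Loxl4. Probe A_66_P107231 had 0.24 ± 0.08 and probe A_55_P2044143 had 0.24 ± 0.06, with intervals of -0.03 to 0.52 and 0.04 to 0.44 (limma adjusted p = 0.825 for each). Loxl4 was higher with LOXL2 in both pairs of arrays on both probes, by 0.15 and 0.26 without BMP2 and by 0.34 and 0.22 under BMP2. Loxl3, Plod2, Plod3, P4ha1 and P4ha2 were also higher with LOXL2 in both pairs. Opposite signs in the 2 pairs were seen for 45.6% of all probes tested. For the endogenous Loxl2 the fitted effects of the added protein were 0.05 ± 0.07, 0.09 ± 0.09 and -0.01 ± 0.07, with limma adjusted p = 0.919, 0.889 and 0.978. Loxl2 RNA was higher with LOXL2 than untreated on its 3 probes and lower with both proteins than with BMP2 alone, by single-pair differences of 0.05 to 0.22 without BMP2 and of -0.07 to -0.02 under BMP2. Each member probe is printed as 1 spot. The median SD between spots of the same probe on an array was 0.064 to 0.067 on the log2 scale. This gives a SD of 0.091 to 0.095 for a difference between single spots. That spread does not include differences between arrays or cultures.

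The response to BMP2 was then read in the 2 pairs of arrays, which share no array and have no test of their own. In the pair with LOXL2 and in the pair without, all 17 probes differed in the same direction, while 22.3% of all probes tested had opposite signs. The 2 BMP2 arrays lay wholly above or wholly below the other 2 for 17 of 17 probes (10 higher and 7 lower), against 68.7% of all probes (36.8% higher and 31.9% lower). A probe without overlap must have the same sign in both pairs, so these counts are not separate evidence. Nor are they separate from the limma test, whose residual is the difference between these 2 pairs. The 17 probes were well above background on all 4 arrays, whereas 2 arrays sufficed for the probes tested. An exact permutation test of 2 arrays against 2 cannot go below a two-sided p of 0.333.

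P4ha2 differed by 1.28 under LOXL2 and by 1.30 without it, and the brighter P4ha1 probe by 0.99 in both pairs. Plod2 differed by 1.09 under LOXL2 and by 1.16 without it. For Lox the differences were -1.09 and -1.15 under LOXL2 and -0.98 and -0.99 without it. The BMP2 response under LOXL2 minus that without it ran from -0.25, on Loxl2 probe A_51_P275949, to 0.19, on Loxl4 probe A_66_P107231. The median of its absolute value was 0.08 over the 17 probes and 0.12 over all probes tested.

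**Figure D3:**
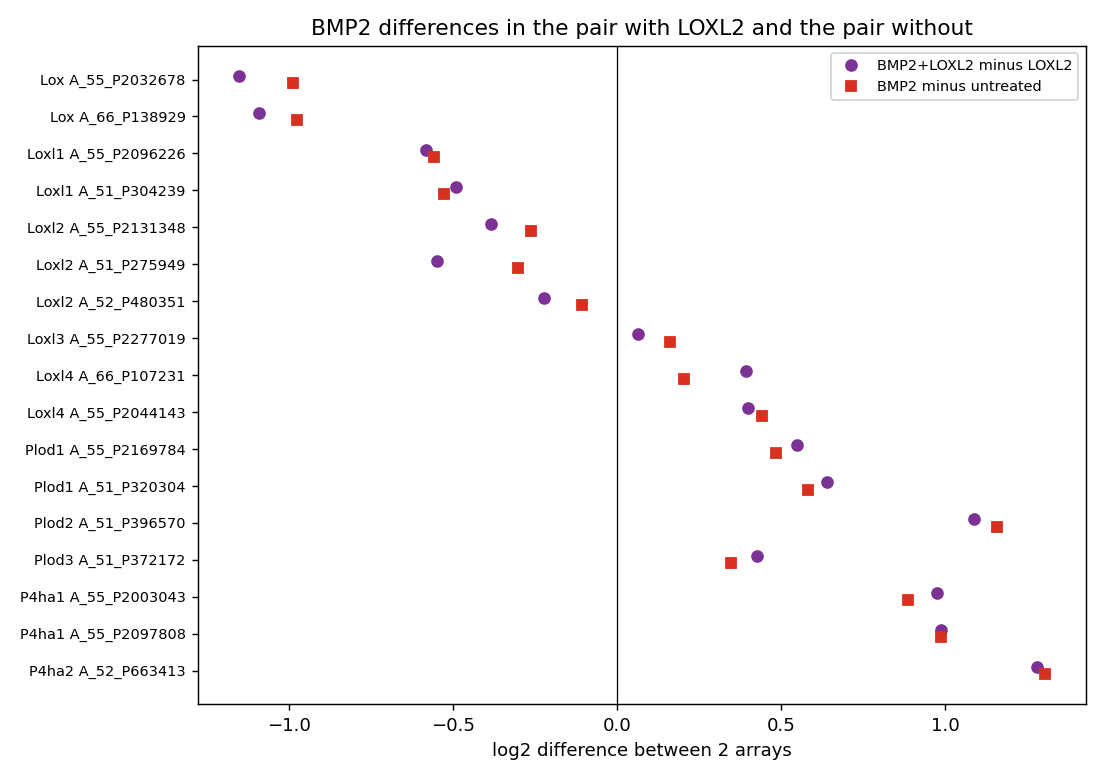
Log2 differences between single arrays for each of the 17 probes: BMP2+LOXL2 minus LOXL2 (circles) and BMP2 minus untreated (squares). Both marks of every probe lie on the same side of 0, and the widest gap is that of Loxl2 probe A_51_P275949, with -0.55 against -0.30.

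The neighbours of these enzymes in collagen synthesis did not move as a block. Each gene was represented by its brightest probe, and 12.7% of 23906 gene names were called for BMP2 by this measure, 6.14% higher and 6.58% lower. Of 11 other genes of collagen hydroxylation, 1 rose, 1 fell and 9 did not pass, with a median of -0.0034 (0.02 over all gene names). Leprel1, now named P3h2, a prolyl 3-hydroxylase, read 276 with both proteins and 221 with BMP2, against 53.5 with LOXL2 and 29.1 untreated. It rose 6.26-fold (2.65 ± 0.18, limma adjusted p = 0.0341). Crtap, the partner of prolyl 3-hydroxylase 1, read 22638 and 22921 with BMP2, against 32760 with LOXL2 and 35591 untreated, and fell by 0.58 ± 0.06 (limma adjusted p = 0.0451). P4hb, the beta subunit that joins P4ha1 and P4ha2 in the enzyme, had a change of 0.38 ± 0.06 (limma adjusted p = 0.0605). For P4ha3, a further alpha subunit, the brighter probe had -0.40 ± 0.06 (limma adjusted p = 0.0566), and 1 of its 2 probes, with -0.67, passed.

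Of 2 galactosyltransferases that glycosylate hydroxylysine, 1 rose. Glt25d2, now named Colgalt2, read 458 with both proteins and 295 with BMP2, against 74.9 with LOXL2 and 67.8 untreated. It rose 5.16-fold (2.37 ± 0.16, limma adjusted p = 0.0343).

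Procollagen proteases and their enhancers cut the propeptides from secreted collagen, and Bmp1 also activates the Lox proenzyme. Of 8 listed, 6 were tested, 0 rose, 3 fell and 3 did not pass, with a median of -0.44. Adamts2, the N-propeptidase of fibrillar collagens, read 25101 and 27334 with BMP2, against 50483 with LOXL2 and 51881 untreated. It fell by 0.97 ± 0.06 (limma adjusted p = 0.0333). Pcolce, which enhances C-propeptide removal, fell by 0.53 ± 0.06 (limma adjusted p = 0.0454). Tll1, a protease related to Bmp1, fell by 1.58 ± 0.06 (limma adjusted p = 0.0298) on its brighter probe, whereas its other probe had -0.05. Bmp1 had a change of -0.23 ± 0.06 (limma adjusted p = 0.112).

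The substrates and partners of lysyl oxidases were split, with 2 of 10 up, 2 down and 6 not called (median 0.24). Fbln5, which ties Loxl1 and elastin together, read 8114 and 9026 with BMP2, against 24449 with LOXL2 and 25452 untreated. It fell by 1.54 ± 0.06 (limma adjusted p = 0.0298). Elastin itself, Eln, fell by 0.78 ± 0.08 (limma adjusted p = 0.0427). Postn, a matricellular protein that promotes Lox activation, rose by 0.99 ± 0.06 (limma adjusted p = 0.0324). Fmod, a proteoglycan that guides collagen cross-linking, rose by 0.64 ± 0.06 (limma adjusted p = 0.0389). The chains of type I collagen, Col1a1 and Col1a2, had changes of -0.06 ± 0.06 and -0.12 ± 0.07 (limma adjusted p = 0.492 and 0.313).

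Of 5 copper and ascorbate carriers, 4 were tested and 0 were called in limma, and of 3 transglutaminases, which make another kind of cross-link, 2 were tested and 0 were called. Of the prolyl hydroxylases of other substrates, the oxygen sensors Egln1 and Egln3, listed with the hypoxia response, rose by 0.77 ± 0.06 and 1.19 ± 0.06 (limma adjusted p = 0.0367 and 0.0308). The sensor Egln2 and the membrane hydroxylase P4htm had changes of 0.09 ± 0.07 and 0.21 ± 0.12 (limma adjusted p = 0.401 and 0.307). For LOXL2, 0 genes of any of these lists passed in limma.

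**Figure D4:**
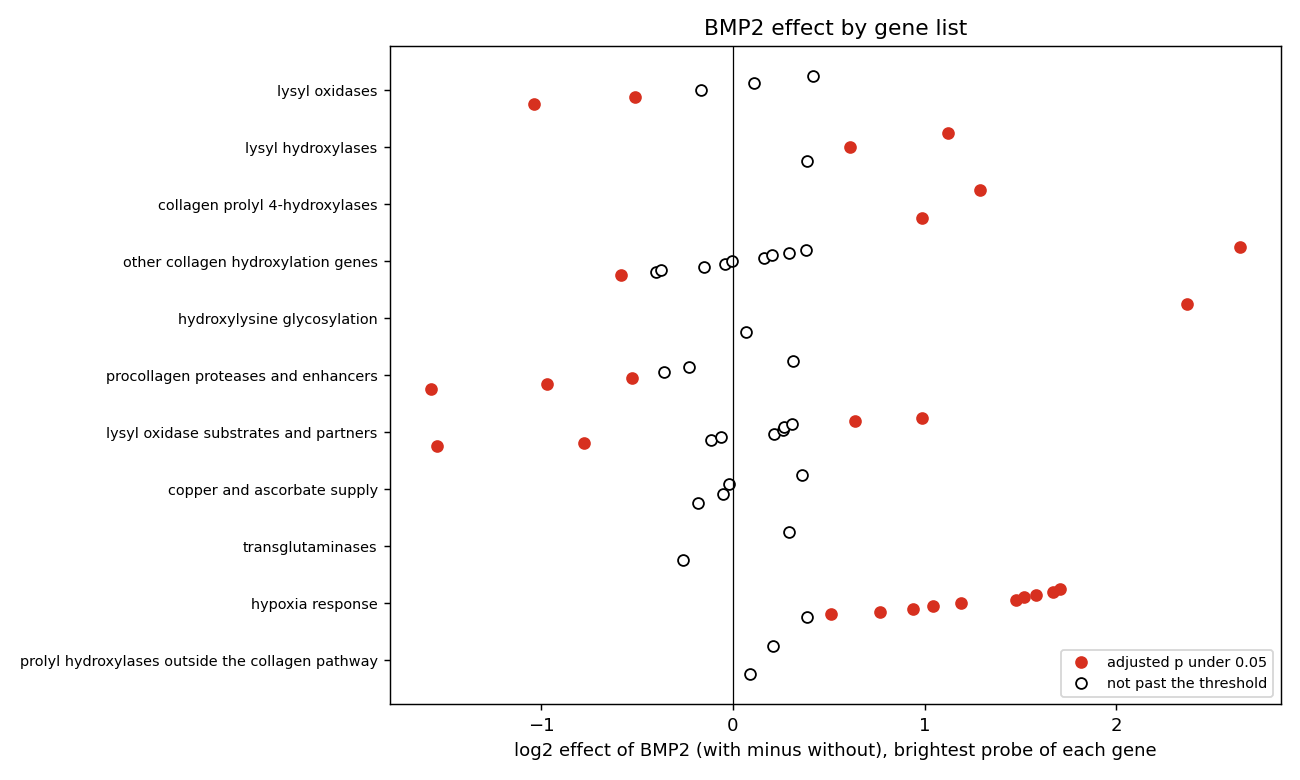
Log2 effect of BMP2 (with minus without) for each tested gene, by list, using its brightest probe. Filled points passed an adjusted p of 0.05: 2 lysyl oxidases lie below 0, 2 lysyl hydroxylases and 2 prolyl 4-hydroxylase subunits above 0, and 10 of 11 hypoxia response genes above 0.

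P4ha1, P4ha2, Plod1, Plod2 and Lox are all known targets of the hypoxia-inducible factors. In a list of 11 other hypoxia response genes 10 rose with BMP2, 0 fell and 1 did not pass, with a median of 1.19. Over all gene names 6.14% rose, with a median of 0.02. The list was chosen with earlier results of these data known, so its count is a description and not a test. The largest changes were those of Ndrg1 (1.71 ± 0.06), Ankrd37 (1.67 ± 0.11), Car9 (1.58 ± 0.11), Vegfa (1.52 ± 0.06) and Slc2a1 (1.48 ± 0.06), with limma adjusted p from 0.0298 to 0.0343. The change of Lox was -1.03, whereas P4ha1, P4ha2, Plod1 and Plod2 rose. The part of the hypoxia list in the results above was not tested.

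Markers of the cells themselves and of other cell types moved with BMP2 on the same arrays. Summed intensities join probes of unlike brightness, so a bright marker can carry a sum. Of 6 osteoblast markers 4 rose, with a median of 2.05 on the log2 scale, and their sum was 71806 with both proteins and 61552 with BMP2, against 25387 with LOXL2 and 21811 untreated. Bglap, the gene of osteocalcin, rose 12.1-fold, Ibsp 5.76-fold, Sp7 4.68-fold and Alpl 3.65-fold. Of 6 chondrocyte markers 5 rose, and their summed intensity was 210746 with both proteins and 134676 with BMP2, against 36239 with LOXL2 and 30756 untreated. Col10a1 and Matn3 were well above background on 3 arrays each. Of 7 fibroblast and tendon markers 5 fell and 1 rose, with sums of 251715 and 251180 with BMP2, against 354929 with LOXL2 and 349980 untreated. All 9 leukocyte markers were lower with BMP2 in the fit, with a median of -0.84, and 2 of them, Mrc1 (-1.55) and Lyz2 (-0.89), passed the test. Their sums were 7001 and 7258 with BMP2, against 8655 with LOXL2 and 9352 untreated, of which Csf1r alone made 5464 and 5474 with BMP2, against 6132 with LOXL2 and 6654 untreated. Ptprc was above background on 3 arrays. It read 11.8 with both proteins and 20.3 with BMP2, against 21.1 with LOXL2 and 16.9 untreated. All 4 endothelial markers were lower with BMP2 on their brightest probes, with a median of -0.56, and 1, Cdh5 (-0.72), passed. Their sums ran from 21542 to 22963 over the arrays, of which Kdr (-0.03) made 21267 to 22560, and Tek was above background on 2. The other probe of Kdr had a change of 0.25. Of 5 adipocyte markers 0 were called, with sums from 8383 to 9207, and the defining markers Adipoq and Plin1 were above background on 2 arrays. The 4 skeletal muscle markers summed to 93.4 to 111, and Ckm was not above background on any array. The part of these cell types in the changes of the enzymes was not tested.

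Finally, genes with the pattern most like those of Lox and P4ha2 were sought among 15470 named genes above background on all arrays, by the Euclidean distance between log2 profiles centred on their mean over the 4 arrays. Nearest to Lox were Mylk, 2010300C02Rik, Tns1, Alcam and 2610019F03Rik, at distances of 0.0137 to 0.0497. Mylk, the myosin light chain kinase, read 251 with both proteins and 267 with BMP2, against 539 with LOXL2 and 531 untreated. Nearest to P4ha2 were 2410006H16Rik, Anxa8, Cox4i2, Gas5 and Mfsd6, at distances of 0.0478 to 0.0665. Anxa8, an annexin, read 42567 and 40513 with BMP2, against 17152 with LOXL2 and 15592 untreated. These likenesses rest on 4 arrays. All the distances given were below the SD of 0.091 to 0.095 for a difference between single spots. Spot error alone could therefore change which genes rank nearest.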

How the data were processed

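The authors deposited scanner output with the Cy3 intensity of every spot. The submitters' processing notes name Agilent Feature Extraction 10.7.3.1. Its settings, per the file headers, had spatial and multiplicative detrending and surrogate values for dim spots switched on and the separate background correction switched off. All 4 arrays sat on 1 slide and were scanned at 1 time, so the place of an array on the slide and its treatment cannot be told apart. The deposited value table equalled the mean processed intensity of a probe's spots within 0.1% for 99.5% of probes and was used as an alternative.

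From the log2 of each processed signal the array's 75th percentile, over 59305 non-control spots, was subtracted. Spots flagged as outliers, 109 to 144 per array, were left out and the spots of a probe were averaged. Printed intensities are scaled to a 75th percentile of 725.5. The 33976 probes well above background on at least 2 arrays and with a value on all 4 were fitted in limma 3.58.1 (R 4.3.3) with BMP2 and LOXL2 as additive terms. This leaves 1 residual degree of freedom, the interaction, to which empirical Bayes added 1.69. Tests were two-sided and adjusted by Benjamini-Hochberg over all 33976 probes. The code was tested on simulated data. Only 4 arrays limit the precision. The p-values rest on the interaction and on the variance that empirical Bayes takes from all probes, and this spread may be technical. They do not measure the spread between replicate cultures, and a true interaction would count as noise.

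The members and lists were chosen with earlier results of these data known. Named genes were all member probes, called genes of each list up to the 5 largest, Col1a1, Col1a2 and Bmp1, and the 5 nearest patterns. P4hb, P4ha3, Egln1, Egln2, Egln3, P4htm and the marker genes given with values were named after their values were seen. A gene of a list was represented by its brightest probe. Genome positions of probes were copied from the scanner files (mm9). Promoters are RefSeq sequence of GRCm38.p6.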

Additional observations from a re-analysis of the deposited data

Results flagged for a closer look

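The LOXL2 difference had opposite signs without and under BMP2 for 6 of the 17 member probes. This is a smaller share than the 45.6% of all probes tested. These differences between effects were not tested, because each is made of 4 single arrays. The value under BMP2 minus that without BMP2 was -0.17 and -0.12 on the Lox probes A_55_P2032678 and A_66_P138929. On the Loxl2 probes A_55_P2131348, A_51_P275949 and A_52_P480351 it was -0.12, -0.25 and -0.12. On Plod1 probe A_51_P320304 it was 0.059, which is below the SD of 0.091 to 0.095 for a difference between single spots.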

How the results depend on the processing

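The 10 member probes called for BMP2 kept their direction under every alternative run, and the same 10 were called under quantile normalization, median centring, normexp background correction, the filter on all 4 arrays, the authors' value table, eBayes with trend and robust settings, and the model without LOXL2. With 1 probe per gene name, 6 of the 10 were in the fit and all 6 were called. With no filter on dim probes 0 members and 0 of all 55664 probes passed in limma, although 11949 probes had an unadjusted p under 0.05. Total member calls were 11 with median centring, 15 with normexp and 12 with the filter on all 4 arrays. They were 12 without LOXL2 in the model and 16 with trend and robust settings. The added calls included Plod3 under the filter on all 4 arrays (limma adjusted p = 0.042). Loxl4 probe A_55_P2044143 was called with median centring (limma adjusted p = 0.0482). Loxl2 probes A_55_P2131348 and A_51_P275949 were called with normexp (limma adjusted p = 0.0146 and 0.0122). For all probes, BMP2 gave 4060 calls, and 11584 with normexp, 6943 with the filter on all 4 arrays, 13738 with trend and robust settings and 8332 without LOXL2 in the model. LOXL2 gave 0 member calls under all of them, and 71 calls among all probes with trend and robust settings. The sign of the LOXL2 effect turned for Lox probe A_55_P2032678 under quantile normalization (-0.0050) and normexp (-0.011), and for Loxl2 probe A_52_P480351 under normexp (0.0045), and the cause was not tested. The single pairs of arrays have no test and so no count of calls. No paired analysis was possible because the labels give no replicate numbers that the treatments share, and the model already sets arrays with and without a protein side by side within the levels of the other. Both the single array per treatment and the filter on signal over background bear on the calls.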
